A study of Mus musculus with 15 samples.

Results

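The interleukins and the members of the tumor necrosis factor (TNF) family are the protein messengers, and the receptors that read them, through which T cells direct each other and the tissues around them. Their genes were chosen by symbol among the 4567 genes that the deposited tables list: every symbol that starts with Il and a digit, with Tnfsf or with Tnfrsf, and Tnf itself, without 7 genes of the interleukin-1 and interleukin-18 branches (Il1b, Il18, Il18r1, Il18rap, Il1r2, Il1rl1 and Il1rn). This gave 37 of 4567 genes, namely 8 interleukin ligands, 16 interleukin receptor chains, 4 TNF family ligands, 8 TNF receptors and 1 enzyme, Il4i1, whose symbol only starts like an interleukin. A gene is listed where the authors' own test on these same libraries called it in at least 1 of their 4 comparisons, so each member had already been selected for a difference, and the p-values below are not independent evidence of one. Of 38 family genes fixed for naming, most of them known from T cells and some from B cells, 20 are listed, and the others, among them Il2, Il2rg and Tnf, were not analysed here.

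RNA was sequenced from sorted splenic mouse T cells in the C57Bl6 to Balb/C model of acute graft-versus-host disease (aGvHD), in 5 groups of 3 libraries that the labels call biological replicates. The question was how allogeneic T cells with active caspase-1, seen with the fluorescent probe Flica, differ from those without it and from resting T cells. The CD4 control and CD8 control groups were C57Bl6 T cells taken on day 0 with no treatment, and the paper describes control T cells as sorted Flica-negative. The CD4 Flica-negative, CD8 Flica-negative and CD8 Flica-positive groups were C57Bl6 T cells recovered on day 7 after transfer to allogeneic Balb/C recipients. Donors and recipients were young adult mice, the recipients were irradiated, and the T cells, isolated by negative selection, were given with donor bone marrow. Spleens of many mice with aGvHD but of as few as 1 control mouse went into a sort, the controls were untransplanted mice and not syngeneic recipients, and Flica-positive CD4 cells were not analysed here. Day 7 cells thus differ from controls in transfer, irradiated host, alloantigen and time together, and these cannot be told apart.

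Interleukin receptors are mostly pairs or trios of chains, in which a private chain binds the ligand and a shared chain, such as gp130 or the interleukin-2 receptor beta chain, carries the signal to JAK kinases and STAT factors. TNF receptors instead gather TRAF adaptors or death domain proteins, and in T cells several of them, such as OX40 (Tnfrsf4) and 4-1BB (Tnfrsf9), act as costimulatory receptors that appear after antigen contact. Resting T cells carry receptors for interleukin-7 and interleukin-6, while the high-affinity interleukin-2 receptor and the interleukin-12 receptor appear on activation.

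Values are normalized counts, that is counts divided by the authors' size factor of the library, in the order of replicates 1, 2 and 3 (n = 3 in every group). Log2 fold changes are given ± SE. The SE is the absolute log2 fold change over the square root of the F statistic of the edgeR test. It thus restates that test and is no separate measure of spread. The edgeR adjusted p is from the quasi-likelihood test of edgeR, adjusted after Benjamini and Hochberg over all listed genes tested. Genes are called below 0.05. Counts on these genes came in sum to 2143579 to 3184674 in the 12 libraries other than CD8 Flica-positive and to 7310375 to 11046043 in those 3. These sums are not library depths, which tables of selected genes do not give. Scaling by the trimmed mean of M values (TMM) over the listed genes, which stands as an alternative to the authors' size factors, shifted the median over all genes, as a log2 fold change, by -0.42 in CD8 and -0.22 in CD4 Flica-negative cells against control and by under 0.1 between CD4 and CD8 cells. Where all libraries of a group had 0 counts, the fold is a lower bound against 3 counts in each library, which covers counting error only, and where a group had 1 to 3 counts in total the ratio stands with its exact 95% counting interval.

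The sorted populations carried transcripts of other cell types, and the CD8 Flica-positive libraries stood apart from the rest in this. Of 14 neutrophil markers, all 14 were called higher in CD8 Flica-positive cells than in CD8 Flica-negative ones, and their summed normalized counts were 193865, 345048 and 381979 in the Flica-positive libraries. In CD8 Flica-negative cells the sums were 11197, 16986 and 17242, in CD4 Flica-negative cells 2467, 4578 and 7747, and in control libraries at most 179.8. Ngp, a granule protein gene, was the most abundant of them, and Ly6g and Stfa2 were at 0 in all control libraries. Of 16 macrophage and monocyte markers 12 are listed, 10 of them were called higher in Flica-positive CD8 cells than in Flica-negative ones, and the sums were 18017, 37519.7 and 35949 against 949, 2098 and 1837, led by Lyz2. Mast cell and basophil markers behaved alike, with 7 of 8 called higher and sums of 2789, 4624 and 4134 against 247, 281 and 177, led by Hdc. Sums of erythroid markers, led by Hba-a1, were 110389, 6735 and 1393 in the Flica-positive and 3555, 523 and 272 in the Flica-negative CD8 libraries, and all 5 listed were called higher in the former. They were 1933, 712 and 362 in CD4 Flica-negative, 9109.5, 9136 and 1981 in CD4 control and 7232, 8047 and 1874 in CD8 control libraries. Flica-positive replicate 1 alone lay above all controls, and replicate 3 was the lowest of each group.

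B cell markers moved the other way in time. Of 13 listed, 12 were called lower in CD8 Flica-negative cells than in CD8 control cells and 12 lower in CD4 Flica-negative than in CD4 control cells. Their sums were 12165, 9044 and 9893 in CD4 control, 13003, 9066 and 9300.5 in CD8 control, 443, 677 and 717 in CD4 Flica-negative, 526, 519 and 451 in CD8 Flica-negative and 1703, 2048 and 1516 in CD8 Flica-positive libraries. Ighd had the highest mean of the list in both controls (1521 and 1570.1 in CD4 and CD8), Cd22 in both Flica-negative groups (486 and 214) and Jchain in CD8 Flica-positive cells (917), and Ms4a1, Blk, Fcer2a and Ebf1 were at 0 in all CD4 Flica-negative libraries. Of the T cell list only Cd8a is listed, at 21642, 18353 and 19250.0 in CD8 control, 13841, 14967 and 12817 in CD8 Flica-negative and 11437, 11492 and 9348 in CD8 Flica-positive libraries. It stood at 49.1, 42.5 and 117 in CD4 control and 4.41, 4.46 and 10.4 in CD4 Flica-negative libraries, as the labels have it. What part these transcripts have in the values of the members was not tested, and in bulk RNA fewer cells of a type and less RNA per cell cannot be told apart.

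Against CD8 control cells, RNA levels of cytokine receptor genes differed in CD8 Flica-negative cells on day 7. RNAs of the chains for interleukin-2 and interleukin-12 and of the TNF receptors 4-1BB, TNFR2 and OX40 rose. Those of the chains for interleukin-6, interleukin-7, interleukin-4 and interleukin-9 fell. Of 37 members tested, 18 were called higher and 13 lower (38.8% and 29.9% of all 4444 genes tested). The members called came to 48.6% and 35.1%, the first above that background and the second close to it, among genes listed for such differences. Their median log2 fold change was 1.95, or 1.695 with genes at 0 set at their bound, beside 0.61 over all genes tested. In the other group comparisons the bound left it as it was.

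Against CD4 control cells, CD4 Flica-negative cells had more Il2rb, Il12rb1 and Il12rb2 and less Il6ra, Il6st and Il4ra. Of 36 members tested, 18 were called higher and 11 lower (33.0% and 27.9% of 4358 genes), which is 50% and 30.6% of the members. The higher calls exceeded the background share and the lower calls lay close to it. The median log2 fold change of the members was 1.504 and that of all genes tested 0.09.

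CD8 Flica-positive cells were compared with the same CD8 control libraries, so the values of this comparison and of CD8 Flica-negative cells share their controls. Of 36 members tested, 19 were called higher and 13 lower (47.2% and 24.2% of 4538 genes), shares of 52.8% and 36.1% in the members. The median log2 fold change was 2.08 among members and 2.04 among all genes tested. Scaling by TMM over the listed genes lowered the median of all genes by 1.65 in log2 and left 11 members higher and 14 lower, and 1236 higher and 1613 lower of all genes against 2144 and 1100. Among members called with the authors' scaling, Il2rb alone changed sign under TMM.

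**Figure D1:**
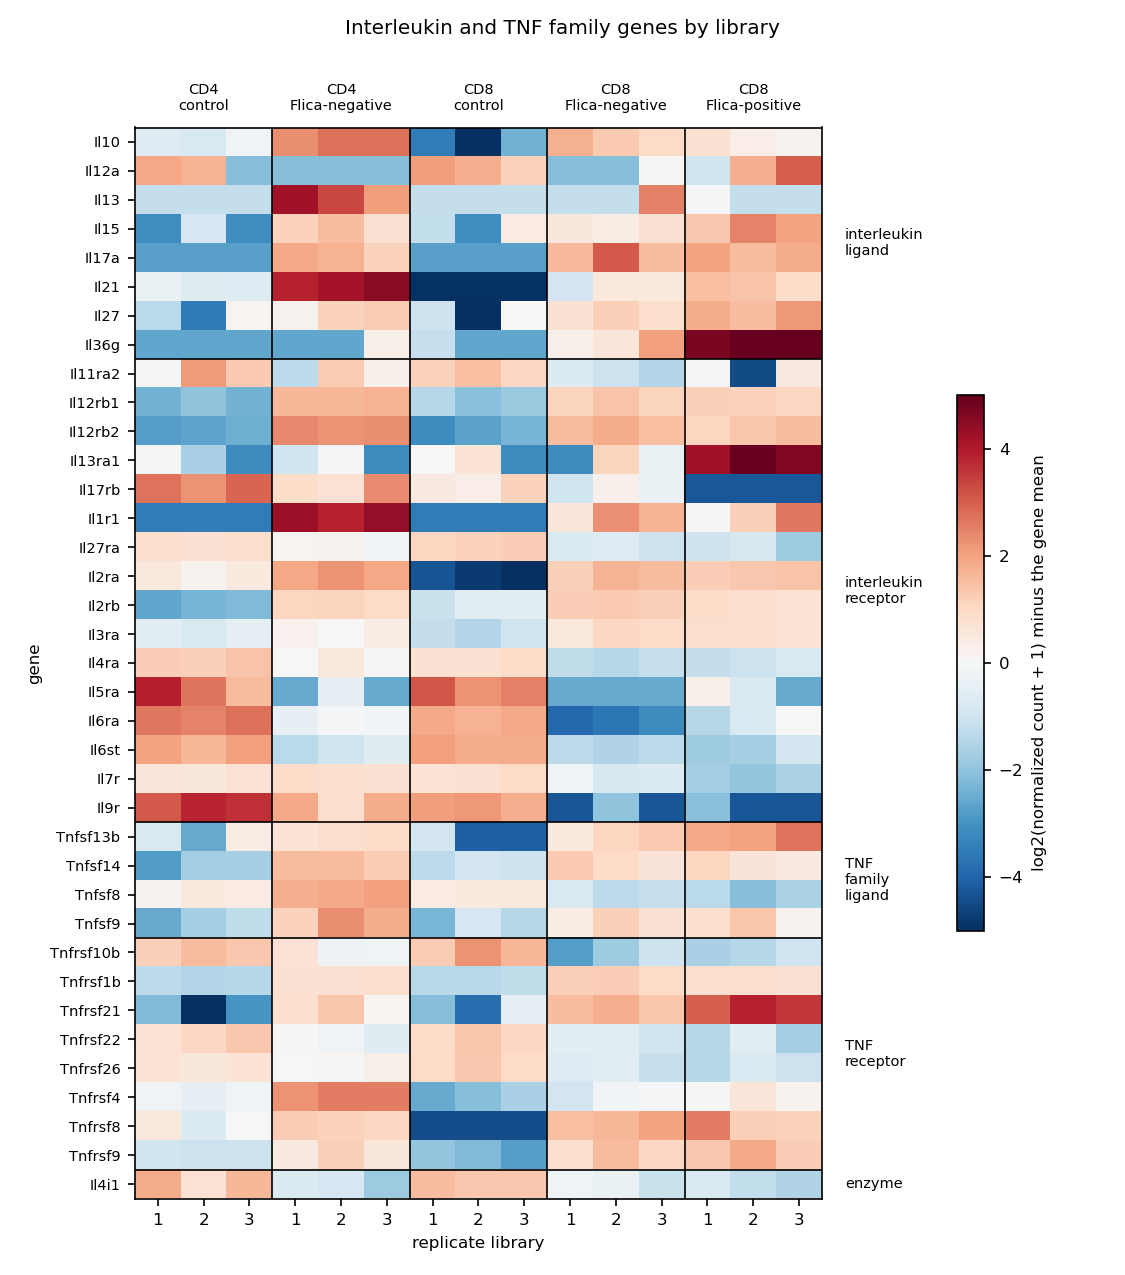
Normalized counts of the 37 members in the 15 libraries, as log2(normalized count + 1) minus the mean of the gene over all libraries, with genes grouped by role and libraries by group. Il2rb, Il12rb1 and Il12rb2 were higher in all 9 day 7 libraries than in the 6 control libraries (under TMM the log2 fold change of Il2rb in CD8 Flica-positive cells against control is -0.07), and Il36g and Il13ra1 were highest in the 3 CD8 Flica-positive libraries.

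Among the interleukin ligands, Il10 and Il21 rose in both lineages. Il10, a cytokine that restrains inflammation, stood at 31.3, 29.0 and 44.5 in CD4 control and 251, 339 and 339.6 in CD4 Flica-negative libraries. In CD8 cells it stood at 3.52, 0 and 8.66 in control, 174, 127 and 102 in Flica-negative and 85.6, 62.4 and 57.4 in Flica-positive libraries. All day 7 libraries lay above all control libraries of their lineage. Il10 rose by a log2 fold change of 3.14 ± 0.34 (edgeR adjusted p = 1.1e-05) in CD4 and 5.03 ± 0.84 (edgeR adjusted p = 0.00047) in CD8 Flica-negative cells. In CD8 Flica-positive cells the difference from control was 4.04 ± 1.23 (edgeR adjusted p = 0.018), a call lost under TMM scaling (adjusted p = 0.108) and without CD8 control replicate 1 (0.0589), in a range of 6.84e-05 to 0.108 over all alternatives.

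Il21 encodes a helper cytokine for B cells and CD8 T cells. It stood at 23.4, 19.3 and 18.7 in CD4 control and 451, 547 and 715 in CD4 Flica-negative libraries, and at 0 in the CD8 control libraries, 14.9, 43.9 and 44.0 in CD8 Flica-negative and 86.8, 82.4 and 57.4 in CD8 Flica-positive libraries. CD4 Flica-negative cells lay far above every other group, with no overlap. The rise in CD4 cells was 4.80 ± 0.32 (edgeR adjusted p = 2.7e-07) in log2, and CD8 Flica-negative and Flica-positive cells were at least 12.5-fold and at least 27.6-fold higher than CD8 control cells (edgeR adjusted p = 0.0012 and 0.0012).

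Il17a, the cytokine that defines Th17 and Tc17 cells, was at 0 in all 6 control libraries. It stood at 23.8, 21.2 and 13.6 in CD4 Flica-negative, 19.2, 54.1 and 18.1 in CD8 Flica-negative and 25.8, 18.8 and 22.7 in CD8 Flica-positive libraries. Each day 7 library thus exceeded the controls, while the 3 day 7 groups overlapped. The day 7 levels were at least 6.57-fold higher in CD4 Flica-negative cells, at least 11.1-fold in CD8 Flica-negative cells and at least 8.20-fold in CD8 Flica-positive cells (edgeR adjusted p = 0.0047, 0.0017 and 0.0068).

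Il13, a type 2 cytokine, was also at 0 in all control libraries and stood at 41.4, 22.3 and 8.81 in CD4 Flica-negative libraries. In CD8 cells it was seen in Flica-negative replicate 3 at 12.1 and in Flica-positive replicate 1 at 1.17 and was at 0 in the other day 7 libraries. Against CD4 control cells the CD4 level was at least 8.14-fold higher (edgeR adjusted p = 0.0039).

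Il36g, an epithelial and myeloid cytokine of the interleukin-1 family, was the ligand that set Flica-positive cells apart. It stood at 161, 204 and 532 in CD8 Flica-positive libraries, at 6.39, 8.40 and 24.2 in CD8 Flica-negative and at 1.76, 0 and 0 in CD8 control libraries. Every Flica-positive library lay above every Flica-negative one, and CD4 cells had counts in 1 of 6 libraries only, at 6.41. The difference between Flica-positive and Flica-negative cells was 4.49 ± 0.68 (edgeR adjusted p = 0.00055) in log2. Against CD8 control cells, which held 2 counts in all, the ratio was 489 for Flica-positive cells (95% counting interval 135 to 4049, edgeR adjusted p = 0.00019) and 22.3 for Flica-negative cells (interval 5.82 to 190.3, edgeR adjusted p = 0.028). The latter call was lost under TMM scaling (adjusted p = 0.053) and without CD8 control replicate 2 (0.0703) or 3 (0.0537) or Flica-negative replicate 3 (0.102), in a range of 0.0122 to 0.129 over all alternatives. Without CD8 control replicate 1, which held both counts, the log2 fold change was 6.81 in place of 4.20 in Flica-negative and 11.1 in place of 8.67 in Flica-positive cells.

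Il15, a survival factor for memory CD8 T cells and NK cells, had 0, 3.87 and 0 in CD4 control and 18.5, 24.6 and 13.6 in CD4 Flica-negative libraries. It had 2.64, 0 and 10.6 in CD8 control, 11.7, 10.3 and 13.8 in CD8 Flica-negative and 21.1, 47.1 and 33.5 in CD8 Flica-positive libraries. The CD4 groups did not overlap, and the log2 difference of 3.74 ± 1.46 (edgeR adjusted p = 0.044) lost its call under TMM (0.0667) and without CD4 control replicate 1 (0.105) or 3 (0.0679) or CD4 Flica-negative replicate 1 (0.0864), 2 (0.109) or 3 (0.0608), in a range of 0.0145 to 0.109 over all alternatives, and was 7.33 without CD4 control replicate 2. Flica-positive cells passed against CD8 control without CD8 control replicate 3 (0.0439), where the edgeR adjusted p with it was 0.082. Il27, which with Ebi3 forms interleukin-27, ranged over 1.93 to 36.5 and 0 to 33.7 in CD4 and CD8 control libraries, 37.9 to 80.9 and 56.5 to 76.5 in the Flica-negative libraries and 97.7 to 153 in the Flica-positive ones. None of its 6 pairwise differences passed the edgeR test, while without CD4 control replicate 3 the CD4 difference did (adjusted p = 0.00503). So did those of CD8 cells without control replicate 3 in Flica-negative (0.0302) and replicate 2 in Flica-positive cells (0.04), in ranges of 0.00503 to 0.152, 0.0302 to 0.197 and 0.0164 to 0.377 over all alternatives. Il12a, a subunit of interleukin-12 and interleukin-35, had 15.6, 13.5 and 0 in CD4 control libraries and 0 in CD4 Flica-negative ones, which is at least 3.47-fold lower (edgeR adjusted p = 0.042). Control replicate 3 shared that 0, and the call was lost without CD4 control replicate 1 (0.0934) or 2 (0.0993) or any CD4 Flica-negative library (0.0878, 0.0831 and 0.0788), in a range of 0.0119 to 0.164 over all alternatives. CD8 Flica-negative cells passed as lower than control without CD8 Flica-negative replicate 3 (0.0169), where the edgeR adjusted p with it was 0.055.

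Among the interleukin receptors, some chains were called higher on day 7 and others lower, and some did not pass in every group. Both chains of the interleukin-12 receptor, which turns T cells toward type 1 responses, rose in each lineage. Il12rb2 stood at 72.6, 77.4 and 90.7 in CD4 control and 2637, 2343 and 2445 in CD4 Flica-negative libraries. Its CD8 levels were 55.5, 76.1 and 98.1 in control, 1473, 1762 and 1416 in Flica-negative and 1029, 1307 and 1460.1 in Flica-positive libraries. Day 7 libraries exceeded controls by over an order of magnitude, with no overlap. The log2 rise was 4.94 ± 0.21 (edgeR adjusted p = 1.9e-08) in CD4 cells, 4.34 ± 0.28 (edgeR adjusted p = 8.9e-07) in CD8 Flica-negative cells and 4.05 ± 0.33 (edgeR adjusted p = 1.7e-05) in CD8 Flica-positive cells. For Il12rb1, the chain it shares with the interleukin-23 receptor, control libraries ranged over 173 to 223 in CD4 and 212 to 331 in CD8 cells, and day 7 libraries over 2821 to 3019, 1954 to 2433 and 1836 to 2079.8 in CD4 Flica-negative, CD8 Flica-negative and CD8 Flica-positive cells. Its rises were 3.93 ± 0.19 (edgeR adjusted p = 5e-08), 3.00 ± 0.24 (edgeR adjusted p = 3e-06) and 2.89 ± 0.25 (edgeR adjusted p = 2.4e-05), again with no overlap. Il12rb2 shares 1519 exonic bases with Serbp1 on the opposite strand, and whether the counting used strand is not given in the sources used here, so reads of the pair cannot be told apart.

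Of the interleukin-2 receptor chains, Il2ra and Il2rb are listed and Il2rg is not. Il2ra is the alpha chain that gives high affinity, and Il2rb the beta chain that also serves interleukin-15. Il2ra stood at 980.4, 763 and 934 in CD4 control and 2593, 3179 and 2564 in CD4 Flica-negative libraries. In the CD8 lineage it stood at 32.6, 23.3 and 5.77 in control, 1523, 2185 and 1998 in Flica-negative and 1565, 1693 and 1787 in Flica-positive libraries. The CD8 control libraries were low by themselves, below all 12 others. Il2ra rose by 1.64 ± 0.18 (edgeR adjusted p = 1.3e-05) in CD4, 6.51 ± 0.49 (edgeR adjusted p = 2.2e-06) in CD8 Flica-negative and 6.34 ± 0.55 (edgeR adjusted p = 2.2e-05) in CD8 Flica-positive cells.

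Il2rb began from the opposite side, with 2203, 2679 and 2891 in CD4 control and 6216, 8931 and 8984 in CD8 control libraries. On day 7 it stood at 27856, 28977 and 26858 in CD4 Flica-negative, 31623, 33117 and 30349.9 in CD8 Flica-negative and 25014, 24284 and 22323 in CD8 Flica-positive libraries. The day 7 groups lay above both controls in every library. Il2rb rose by 3.43 ± 0.15 (edgeR adjusted p = 2.7e-08) in CD4 cells and 1.98 ± 0.15 (edgeR adjusted p = 1.9e-06) in CD8 Flica-negative cells. In Flica-positive cells the difference from CD8 control was 1.57 ± 0.20 (edgeR adjusted p = 0.00018), but -0.07 under TMM scaling (adjusted p = 0.831, range over all alternatives 5.22e-10 to 0.831), so its direction there hangs on the scaling.

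Both chains of the interleukin-6 receptor fell. Il6ra, the ligand-binding chain for interleukin-6, stood at 9949, 9039.5 and 10701 in CD4 control and 1219, 1551 and 1459 in CD4 Flica-negative libraries. CD8 cells had 6027, 5369 and 5946 in control, 104, 129 and 182 in Flica-negative and 589, 950.0 and 1600.1 in Flica-positive libraries. None of the groups overlapped its control, and CD8 Flica-negative libraries were the lowest. The log2 changes were -2.81 ± 0.16 (edgeR adjusted p = 1.1e-07) in CD4 cells, -5.38 ± 0.24 (edgeR adjusted p = 1.1e-07) in CD8 Flica-negative cells and -2.47 ± 0.35 (edgeR adjusted p = 0.00036) in CD8 Flica-positive cells. Il6st, which encodes gp130, the signalling chain of the interleukin-6 family, ranged over 6360.0 to 8283 in CD4 control and 7292 to 8249.7 in CD8 control libraries, against 780.2 to 1323, 699.8 to 814 and 587 to 1063 in CD4 Flica-negative, CD8 Flica-negative and CD8 Flica-positive libraries. It fell in all 3, with log2 fold changes of -2.87 ± 0.22 (edgeR adjusted p = 7.1e-07), -3.31 ± 0.15 (edgeR adjusted p = 1.2e-07) and -3.32 ± 0.28 (edgeR adjusted p = 1.9e-05).

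Il7r encodes the interleukin-7 receptor alpha chain, which keeps naive and memory T cells alive. It stood at 9612, 9457 and 10466 in CD4 control and 11998, 11104 and 10777 in CD4 Flica-negative libraries. In CD8 cells it stood at 10152, 10724 and 12709 in control, 5507, 3633 and 3994 in Flica-negative and 1965, 1661 and 2126 in Flica-positive libraries. The CD8 groups formed separate steps, while CD4 Flica-negative libraries lay narrowly above CD4 control libraries. Il7r fell with log2 fold changes of -1.35 ± 0.17 (edgeR adjusted p = 8e-05) in CD8 Flica-negative and -2.55 ± 0.20 (edgeR adjusted p = 1.5e-05) in CD8 Flica-positive cells against control. In CD4 cells the difference was 0.20 ± 0.13 (edgeR adjusted p = 0.21) and turned to -0.03 under TMM scaling.

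Il4ra and Il27ra, receptor chains for interleukin-4 and interleukin-27, were high in both controls. Il4ra stood at 8122, 7788 and 9249 in CD4 control and 3429, 4946 and 3536 in CD4 Flica-negative libraries. Its CD8 values were 5816, 5863 and 6545 in control, 1429, 1265 and 1564 in Flica-negative and 1496, 1648 and 2013 in Flica-positive libraries. No day 7 library reached its control. Il4ra fell with log2 fold changes of -1.08 ± 0.17 (edgeR adjusted p = 0.00028) in CD4, -2.10 ± 0.15 (edgeR adjusted p = 1.7e-06) in CD8 Flica-negative and -1.82 ± 0.20 (edgeR adjusted p = 7.9e-05) in CD8 Flica-positive cells. Il27ra ranged over 5332 to 5860.4 in CD4 control, 2813 to 3584 in CD4 Flica-negative, 6615 to 7432 in CD8 control, 1496 to 2033 in CD8 Flica-negative and 889 to 1836 in CD8 Flica-positive libraries. The corresponding log2 fold changes were -0.77 ± 0.15 (edgeR adjusted p = 0.0012), -1.96 ± 0.16 (edgeR adjusted p = 3.5e-06) and -2.30 ± 0.28 (edgeR adjusted p = 0.00015).

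Il9r, the receptor for the growth factor interleukin-9, stood at 161, 269 and 240.1 in CD4 control and 71.4, 33.5 and 69.7 in CD4 Flica-negative libraries. It stood at 81.1, 86.9 and 66.4 in CD8 control, 0, 3.73 and 0 in CD8 Flica-negative and 3.52, 0 and 0 in CD8 Flica-positive libraries. CD8 cells on day 7 had counts in 1 library of each group, and CD4 cells kept counts in every library. Il9r fell with log2 fold changes of -1.93 ± 0.39 (edgeR adjusted p = 0.0015) in CD4 cells and -5.83 ± 0.99 (edgeR adjusted p = 0.00052) in CD8 Flica-negative cells, the latter -9.40 without CD8 Flica-negative replicate 2. CD8 Flica-positive cells held 3 counts in all, a ratio of 66.3 below control (95% counting interval 22.4 to 324, edgeR adjusted p = 0.0046), and the fitted log2 fold change moved from -5.90 to -9.28 without replicate 1.

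Il1r1, the signalling receptor for interleukin-1, was at 0 in all 6 control libraries. On day 7 it stood at 215, 159.6 and 233 in CD4 Flica-negative, 16.0, 53.2 and 36.2 in CD8 Flica-negative and 10.6, 24.7 and 68.2 in CD8 Flica-positive libraries. CD4 libraries lay above all CD8 libraries. The level was at least 68.1-fold higher than control in CD4 cells, at least 12.8-fold in CD8 Flica-negative cells and at least 12.6-fold in CD8 Flica-positive cells (edgeR adjusted p = 2.8e-06, 0.0011 and 0.0073).

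Il3ra, the interleukin-3 receptor alpha chain, ranged over 258 to 323 in CD4 control and 453 to 581 in CD4 Flica-negative libraries. In CD8 cells it ranged over 162 to 220.2 in control, 648 to 906 in Flica-negative and 731 to 812 in Flica-positive libraries. Every day 7 library was above its controls, with log2 rises of 0.81 ± 0.22 (edgeR adjusted p = 0.0082), 2.05 ± 0.26 (edgeR adjusted p = 6.9e-05) and 2.01 ± 0.27 (edgeR adjusted p = 0.00028). Under TMM scaling the CD4 and Flica-positive calls were lost (adjusted p = 0.0646 and 0.332, in ranges of 0.00108 to 0.0646 and 2.64e-16 to 0.332 over all alternatives). Il5ra, the interleukin-5 receptor chain known from B-1 cells and eosinophils, went the other way, from 83.7, 35.8 and 16.0 in CD4 control and 48.5, 26.0 and 31.7 in CD8 control libraries to 0, 3.35 and 0 in CD4 Flica-negative and 5.86, 2.35 and 0 in CD8 Flica-positive libraries and 0 in all CD8 Flica-negative ones. CD4 Flica-negative cells held 3 counts, a ratio of 46.5 below control (95% counting interval 15.6 to 229, edgeR adjusted p = 0.0041), with a fitted log2 fold change of -8.62 in place of -5.36 without CD4 Flica-negative replicate 2, and CD8 Flica-negative cells were at least 12.4-fold below theirs (edgeR adjusted p = 0.00082). The Flica-positive difference of -3.63 ± 1.30 (edgeR adjusted p = 0.034) lost its call without CD8 control replicate 1 (0.104), 2 (0.0658) or 3 (0.0633) or Flica-positive replicate 2 (0.0754), in a range of 0.00194 to 0.118 over all alternatives. The B cell markers given above were low in the same libraries, and their part in the values of Il5ra was not tested.

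Il17rb, a receptor chain for interleukin-25, stood at 124, 88.0 and 141 in CD4 control and 34.4, 30.1 and 95.3 in CD4 Flica-negative libraries. It stood at 24.7, 22.4 and 40.4 in CD8 control, 8.52, 21.5 and 13.8 in CD8 Flica-negative and 0 in all CD8 Flica-positive libraries. Flica-positive cells were at least 8.22-fold below CD8 control cells (edgeR adjusted p = 0.0062). The differences between Flica-negative and control cells were -1.13 ± 0.51 (edgeR adjusted p = 0.073) in CD4 and -0.99 ± 0.70 (edgeR adjusted p = 0.22) in CD8 cells, and that in CD4 cells passed under TMM (0.037) and without CD4 Flica-negative replicate 3 (0.00846), in a range of 0.00846 to 0.196 over all alternatives. Il13ra1, which pairs with Il4ra to bind interleukin-13 and is common on myeloid cells, ranged over 0 to 7.82, 0 to 7.81, 0 to 13.4 and 0 to 18.7 in CD4 control, CD4 Flica-negative, CD8 control and CD8 Flica-negative libraries and stood at 166, 336 and 226 in CD8 Flica-positive ones. The Flica-positive libraries lay above all others, by 5.06 ± 1.05 (edgeR adjusted p = 0.0032) in log2 against CD8 control cells. Il11ra2, a copy of the interleukin-11 receptor gene with close paralogs whose reads the counting could split, ranged over 20.1 to 93.8, 7.93 to 52.5, 44.2 to 61.8, 6.90 to 12.8 and 0 to 28.7 in CD4 control, CD4 Flica-negative, CD8 control, CD8 Flica-negative and CD8 Flica-positive libraries. It fell in CD8 Flica-negative cells against control (-2.40 ± 0.61 (edgeR adjusted p = 0.0059)), a call lost with all 5 groups in 1 fit (0.0583, in a range of 0.000222 to 0.0583 over all alternatives).

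**Figure D2:**
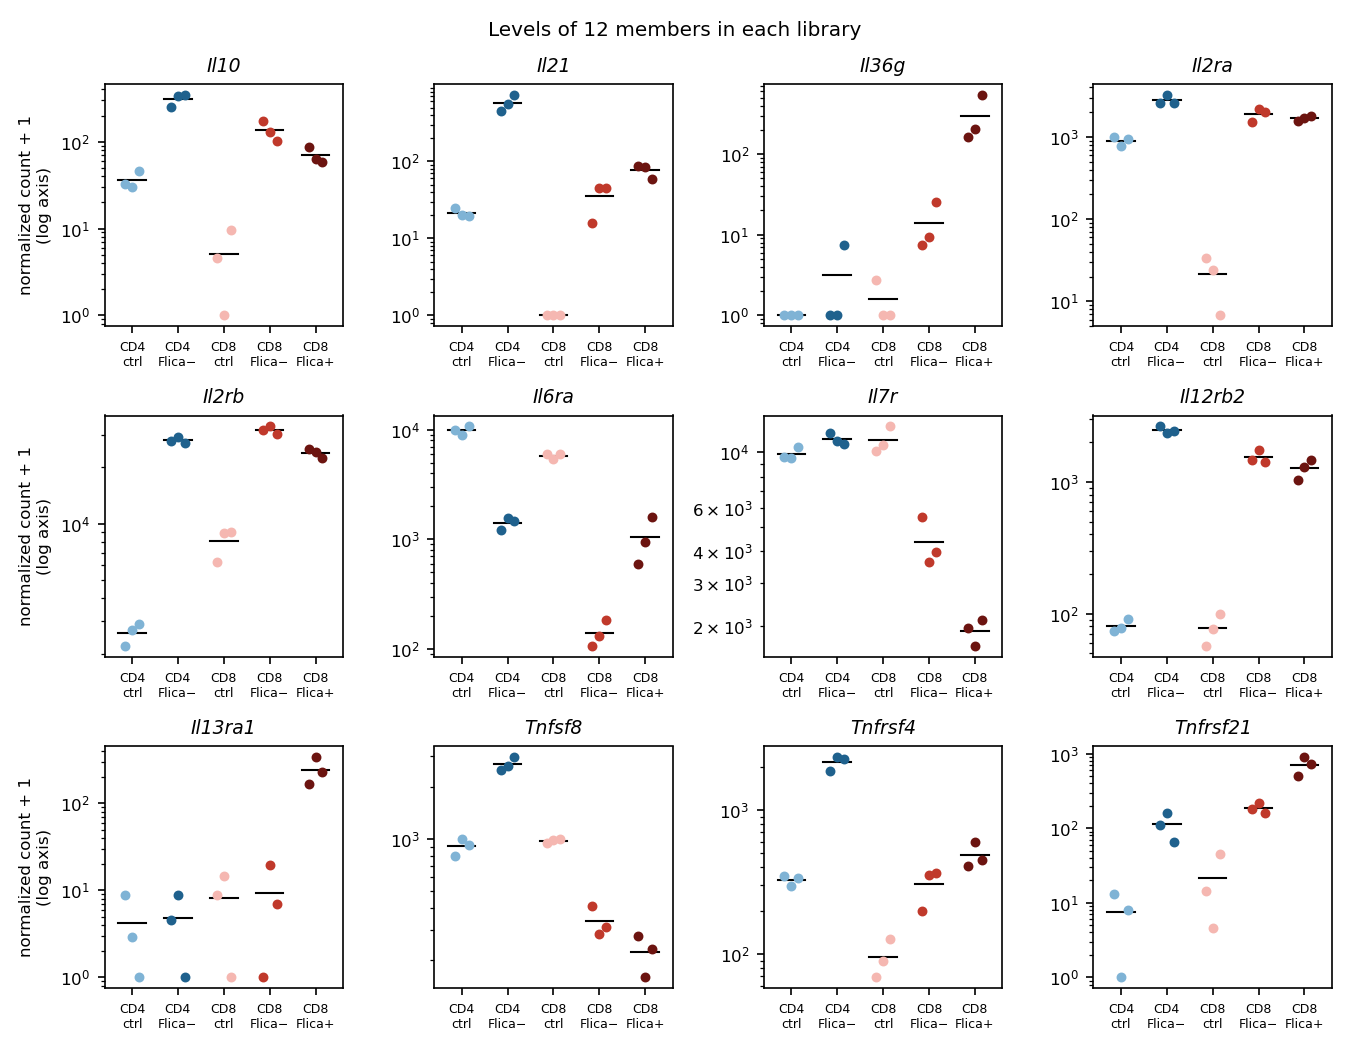
Normalized counts plus 1 of 12 members on a log axis, by group (ctrl stands for control, Flica with a minus or plus for Flica-negative and Flica-positive), with 1 point per library and a bar at the mean of 3 libraries. Il7r falls in steps over the CD8 groups, Tnfsf8 is highest in CD4 Flica-negative libraries and lowest in CD8 day 7 libraries, and Il36g and Il13ra1 are highest in Flica-positive ones.

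Of the 4 TNF family ligands, Tnfsf14 and Tnfsf9 rose in both lineages and Tnfsf8 split them. Tnfsf8 encodes CD30 ligand, a membrane protein of activated T cells. It stood at 798, 993 and 923 in CD4 control and 2485, 2612 and 2938 in CD4 Flica-negative libraries. Its CD8 levels were 943, 982 and 1004 in control, 412, 282 and 312 in Flica-negative and 274, 159 and 232 in Flica-positive libraries. All CD4 libraries went up and all CD8 libraries went down from a common starting level, with no overlap. Tnfsf8 rose by 1.57 ± 0.17 (edgeR adjusted p = 1.2e-05) in CD4 cells and changed by -1.54 ± 0.23 (edgeR adjusted p = 0.00024) in CD8 Flica-negative and -2.14 ± 0.29 (edgeR adjusted p = 0.00028) in CD8 Flica-positive cells.

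Tnfsf14, or LIGHT, which binds HVEM and the lymphotoxin beta receptor, stood at 38.0, 80.3 and 84.5 in CD4 control and 812, 795 and 654 in CD4 Flica-negative libraries. In the CD8 lineage it stood at 110.1, 142 and 134 in control, 668, 549 and 431 in Flica-negative and 569.8, 431 and 372 in Flica-positive libraries. The day 7 libraries exceeded their controls throughout. Its rises were 3.47 ± 0.32 (edgeR adjusted p = 2.8e-06) in CD4, 2.09 ± 0.29 (edgeR adjusted p = 0.00013) in CD8 Flica-negative and 1.83 ± 0.35 (edgeR adjusted p = 0.0021) in CD8 Flica-positive cells, the last lost under TMM (adjusted p = 0.656, range over all alternatives 2.12e-08 to 0.656).

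Tnfsf9, the ligand of 4-1BB, ranged over 20.1 to 48.9 in CD4 control and 23.8 to 65.4 in CD8 control libraries. On day 7 it stood at 262, 599 and 428 in CD4 Flica-negative, 156, 274 and 199 in CD8 Flica-negative and 208, 312 and 134 in CD8 Flica-positive libraries. Controls and day 7 libraries did not overlap, and the rises were 3.60 ± 0.42 (edgeR adjusted p = 2.1e-05), 2.25 ± 0.47 (edgeR adjusted p = 0.0019) and 2.30 ± 0.61 (edgeR adjusted p = 0.01), of which the last was lost under TMM (0.364, range over all alternatives 0.000158 to 0.364). Tnfsf13b, or BAFF, a B cell survival factor made largely by myeloid cells, had 8.93, 1.93 and 20.5 in CD4 control and 25.6, 30.1 and 30.4 in CD4 Flica-negative libraries. It had 7.93, 0 and 0 in CD8 control, 22.4, 34.5 and 40.6 in CD8 Flica-negative and 61.0, 65.9 and 109 in CD8 Flica-positive libraries. Each day 7 CD8 library exceeded the CD8 controls, where 1 library alone had counts, and the CD4 difference of 1.44 ± 0.90 (edgeR adjusted p = 0.18) did not pass. Differences from CD8 control were 3.55 ± 1.28 (edgeR adjusted p = 0.032) in Flica-negative and 4.81 ± 1.47 (edgeR adjusted p = 0.018) in Flica-positive cells, and 8.12 and 9.21 without CD8 control replicate 1. Both calls were lost under TMM (adjusted p = 0.0779 and 0.0915), and the Flica-negative one without CD8 control replicate 2 (0.0575) or Flica-negative replicate 2 (0.0705) or 3 (0.0909), in ranges of 0.00254 to 0.0909 and 0.00121 to 0.0915 over all alternatives.

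Among the TNF receptors, Tnfrsf4, Tnfrsf9, Tnfrsf1b and Tnfrsf21 were called higher in each day 7 group against its control, and Tnfrsf10b, Tnfrsf22 and Tnfrsf26 lower. Calls that other settings end are given at each gene. Tnfrsf4, or OX40, stood at 348, 297 and 334 in CD4 control and 1851, 2315 and 2274 in CD4 Flica-negative libraries. CD8 cells had 67.8, 87.8 and 127 in control, 199, 351 and 364 in Flica-negative and 408, 600.4 and 446 in Flica-positive libraries. Each step from control was clear of overlap, and the CD4 Flica-negative libraries were the highest of all. OX40 rose by 2.72 ± 0.19 (edgeR adjusted p = 3.9e-07) in CD4, 1.69 ± 0.38 (edgeR adjusted p = 0.003) in CD8 Flica-negative and 2.36 ± 0.40 (edgeR adjusted p = 0.00094) in CD8 Flica-positive cells, the last lost under TMM (adjusted p = 0.164, range over all alternatives 2.76e-09 to 0.164). Tnfrsf9, or 4-1BB, stood at 344, 323 and 325 in CD4 control, 928, 1575 and 1004 in CD4 Flica-negative and 174, 147 and 102 in CD8 control libraries. It reached 1208, 2033 and 1398 in CD8 Flica-negative and 1739.8, 2547 and 1592 in CD8 Flica-positive libraries. Day 7 libraries were above control in all cases, by 1.82 ± 0.24 (edgeR adjusted p = 4.6e-05), 3.45 ± 0.30 (edgeR adjusted p = 5.9e-06) and 3.79 ± 0.32 (edgeR adjusted p = 2e-05).

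Tnfrsf1b, which encodes TNFR2, the TNF receptor that favours survival of activated T cells, ranged over 1295 to 1458 in CD4 control and 1385 to 1491 in CD8 control libraries. On day 7 it ranged over 6133 to 6405 in CD4 Flica-negative, 7218 to 8358 in CD8 Flica-negative and 6162 to 6532 in CD8 Flica-positive libraries. The ranges were tight and apart, with rises of 2.19 ± 0.15 (edgeR adjusted p = 3.1e-07), 2.47 ± 0.14 (edgeR adjusted p = 3.6e-07) and 2.16 ± 0.18 (edgeR adjusted p = 1.9e-05), the last lost under TMM (adjusted p = 0.0977, range over all alternatives 2.71e-47 to 0.0977). Tnfrsf8, or CD30, the receptor of Tnfsf8, stood at 30.1, 12.6 and 20.5 in CD4 control and 51.1, 46.9 and 43.2 in CD4 Flica-negative libraries. It was at 0 in CD8 control and at 60.7, 68.1 and 87.2 in CD8 Flica-negative and 128, 49.4 and 47.8 in CD8 Flica-positive libraries. CD8 cells were at least 26.3-fold and at least 27.4-fold above control in Flica-negative and Flica-positive cells (edgeR adjusted p = 0.0001 and 0.0018), and the CD4 difference was 1.16 ± 0.60 (edgeR adjusted p = 0.11). Tnfrsf21, or death receptor 6, stood at 12.3, 0 and 7.12 in CD4 control and 109, 161 and 64.9 in CD4 Flica-negative libraries. Its CD8 values were 13.2, 3.58 and 44.2 in control, 178, 216 and 159.7 in Flica-negative and 496, 885 and 719 in Flica-positive libraries, 3 separate levels. The rises from control were 4.11 ± 0.85 (edgeR adjusted p = 0.0016), 3.18 ± 0.72 (edgeR adjusted p = 0.0032) and 5.11 ± 0.79 (edgeR adjusted p = 0.0006).

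Tnfrsf10b, the mouse receptor for TRAIL, stood at 162, 214 and 183 in CD4 control and 118, 59.2 and 60.9 in CD4 Flica-negative libraries. In CD8 cells it stood at 173, 341 and 226 in control, 9.59, 19.6 and 33.7 in Flica-negative and 22.3, 25.9 and 34.7 in Flica-positive libraries. It was lower in each day 7 library than in the controls of its lineage. The log2 fold changes were -1.23 ± 0.38 (edgeR adjusted p = 0.015), -3.54 ± 0.53 (edgeR adjusted p = 0.00022) and -3.15 ± 0.55 (edgeR adjusted p = 0.0012), the CD4 one lost without CD4 control replicate 2 (0.0559) or CD4 Flica-negative replicate 2 (0.0525), in a range of 0.0054 to 0.0559 over all alternatives. Tnfrsf22 and Tnfrsf26, relatives of the TRAIL receptor whose close similarity could split reads between them, ranged over 462 to 699 and 842 to 913 in CD4 control and 537 to 733 and 1110.1 to 1464 in CD8 control libraries. Tnfrsf22 ranged over 180.2 to 290.1, 139.8 to 195 and 83.7 to 191, and Tnfrsf26 over 569.5 to 709.6, 254 to 399 and 212 to 349.6, in CD4 Flica-negative, CD8 Flica-negative and CD8 Flica-positive libraries. Tnfrsf22 fell with log2 fold changes of -1.27 ± 0.26 (edgeR adjusted p = 0.0015), -1.80 ± 0.27 (edgeR adjusted p = 0.00026) and -2.28 ± 0.40 (edgeR adjusted p = 0.0012). Tnfrsf26 fell with log2 fold changes of -1.87 ± 0.25 (edgeR adjusted p = 0.0001) and -2.16 ± 0.28 (edgeR adjusted p = 0.00022) in the CD8 groups. Its CD4 difference of -0.51 ± 0.19 (edgeR adjusted p = 0.032) lost its call with all 5 groups in 1 fit (0.0806) and without CD4 control replicate 1 (0.0819), 2 (0.0594) or 3 (0.0532) or CD4 Flica-negative replicate 1 (0.0823) or 2 (0.078), in a range of 0.0133 to 0.0823 over all alternatives.

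Il4i1, a secreted amino acid oxidase of B cells and myeloid cells, was the only enzyme. It ranged over 119.9 to 261 in CD4 control and 184 to 209.7 in CD8 control libraries, and over 20.02 to 43.2, 32.8 to 62.9 and 25.1 to 42.2 in CD4 Flica-negative, CD8 Flica-negative and CD8 Flica-positive libraries. It fell with log2 fold changes of -2.57 ± 0.45 (edgeR adjusted p = 0.00051), -1.92 ± 0.40 (edgeR adjusted p = 0.0019) and -2.56 ± 0.54 (edgeR adjusted p = 0.0034) in these 3 groups, with no overlap. Of its 4080 exonic bases, 3423 are shared with Tbc1d17 on the opposite strand, so these counts may include reads of that gene.

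With the authors' size factors, CD8 cells with and without the Flica signal differed in few members on day 7, and in more under TMM scaling (given below). Il36g, Il13ra1, Il6ra and Tnfrsf21 were higher in Flica-positive cells, and Il7r and Il17rb were lower. Of 35 members tested, these 4 (11.4%) were called higher and 2 (5.71%) lower, where 21.7% and 2.80% of all 4286 genes tested were called, so the share of higher calls lay below the background. The lower calls are too few to read against it. Their background hangs on single libraries, with 23 of all genes lower without CD8 Flica-negative replicate 2, 39 without replicate 1, 73 without replicate 3 and 37 without Flica-positive replicate 2, in place of 120. The median log2 fold change was -0.03 over the members and 0.45 over all genes.

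For Il6ra the log2 difference between Flica-positive and Flica-negative cells was 2.91 ± 0.39 (edgeR adjusted p = 0.00022), for Il13ra1 4.84 ± 0.90 (edgeR adjusted p = 0.0022) and for Tnfrsf21 1.92 ± 0.30 (edgeR adjusted p = 0.00059). The libraries of these groups did not overlap, and the Flica-positive ones were the higher. Il7r was lower in each Flica-positive library, at -1.19 ± 0.22 (edgeR adjusted p = 0.0023). These 4 calls and that of Il36g were kept under all alternatives run. Il17rb, at 0 in Flica-positive libraries, was at least 4.12-fold lower (edgeR adjusted p = 0.042), a call lost without CD8 Flica-negative replicate 1 (0.0851), 2 (0.109) or 3 (0.0949) or Flica-positive replicate 1 (0.0647) or 2 (0.0808), in a range of 0.00119 to 0.148 over all alternatives.

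The remaining 29 members did not pass in this comparison, among them Il2ra (-0.18 ± 0.21 (edgeR adjusted p = 0.56)), Il2rb (-0.41 ± 0.16 (edgeR adjusted p = 0.092)), Tnfrsf4 (0.67 ± 0.31 (edgeR adjusted p = 0.14)) and Tnfsf8 (-0.60 ± 0.33 (edgeR adjusted p = 0.2)). TMM scaling shifted the median of all genes by -0.56 and gave 4 members higher and 10 lower, and 721 higher and 447 lower of all genes against 929 and 120. The members gained as lower under TMM were Il10 (0.0339), Il12rb1 (0.0431), Il12rb2 (0.0109), Il27ra (0.0478), Il2ra (0.0186), Il2rb (0.00833), Tnfrsf1b (0.0117) and Tnfsf8 (0.0261), with the adjusted p in parentheses. The neutrophil, macrophage and mast cell marker sums given above were higher in the same 3 Flica-positive libraries, and their part in the values of Il36g, Il13ra1, Il6ra and Tnfrsf21 was not tested. The dendritic cell list has 5 of its 10 genes listed, of which Itgax, Xcr1 and Ccr9 are also T cell genes. Of the 5, 2 were called higher and 1 lower. Their sums, led by Itgax, were 5552, 6641 and 5131 in Flica-positive and 9875, 9466 and 6957 in Flica-negative libraries. Means in Flica-positive and Flica-negative cells were 210 and 14.7 for Flt3, 50.4 and 1.42 for Batf3 and 232 and 163 for Xcr1. They were 5234 and 8514 for Itgax and 48.0 and 72.2 for Ccr9. What part dendritic cells have in the values of the members was not tested. Of 4 megakaryocyte markers 1 was called higher, at sums of 280.2, 263 and 494 against 24.5, 48.5 and 63.0 led by Itga2b, and no endothelial marker of 8 is listed.

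CD4 and CD8 control cells differed in 10 of 33 members tested, 9 higher in CD4 cells (7.11% of 3952 genes) and 1 lower (5.85%), or 27.3% and 3.03% of the members. Resting CD4 cells carried more Il2ra, by 5.42 ± 0.37 (edgeR adjusted p = 2.1e-08), more Tnfrsf4, by 1.79 ± 0.28 (edgeR adjusted p = 0.0002), and more Tnfrsf9, by 1.23 ± 0.25 (edgeR adjusted p = 0.0027), while CD8 cells carried more Il2rb (-1.63 ± 0.17 (edgeR adjusted p = 2.2e-06)). The libraries of the lineages did not overlap for these genes. Of 3 listed regulatory T cell genes, 2 were called higher and 1 lower in CD4 than in CD8 control cells. Means in CD4 and CD8 control cells were 778 and 132 for Ctla4, 382 and 131 for Gpr83 and 113 and 3562 for Itgae. What part regulatory T cells have in these values was not tested. Il17rb (2.01 ± 0.43 (edgeR adjusted p = 0.0035)), Il9r (1.51 ± 0.31 (edgeR adjusted p = 0.0023)), Il6ra (0.78 ± 0.13 (edgeR adjusted p = 0.00048)) and Il4ra (0.47 ± 0.13 (edgeR adjusted p = 0.026)) were also higher in CD4 cells, and all 4 calls were lost with all 5 groups in 1 fit (0.11, 0.27, 0.0825 and 0.124), that of Il4ra also without CD4 control replicate 1 (0.0554) or CD8 control replicate 1 (0.1) or 2 (0.148). Their ranges over all alternatives were 0.000324 to 0.11, 0.000164 to 0.27, 6.81e-08 to 0.0825 and 0.00098 to 0.148. Il21 and Tnfrsf8, at 0 in CD8 control cells, were at least 7.48-fold and at least 7.69-fold higher in CD4 control cells (edgeR adjusted p = 0.013 and 0.013), calls lost without CD4 control replicate 1 (0.0664 and 0.0947) and, for Il21, replicate 2 (0.0552), in ranges of 4.79e-05 to 0.0664 and 0.000388 to 0.0947 over all alternatives. Without CD8 control replicate 3 Il10 passed as well (adjusted p = 0.0259, range over all alternatives 0.00597 to 0.186, against an edgeR adjusted p of 0.081 with it). The median log2 fold change was 0.04 in members and 0.07 in all genes.

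On day 7 the Flica-negative cells of both lineages differed in 18 of 35 members tested, of which 17 were higher in CD4 cells (10.1% of 4241 genes) and 1, Il3ra, lower (12.6%), shares of 48.6% and 2.86%. Without CD4 Flica-negative replicate 2, 284 of all genes were called higher and 325 lower in place of 428 and 536. The lower calls were 335 without CD8 Flica-negative replicate 2 and 347 without replicate 3. With replicate numbers as a block, which the labels do not tie, Il2rb, Tnfrsf1b, Tnfrsf9 and Tnfrsf21 also passed as lower in CD4 cells. Tnfsf14 and Il6st then passed as higher, as given below. The median log2 fold change was 0.65 in members and -0.12 in all genes. Il9r (5.41 ± 0.97 (edgeR adjusted p = 0.0011), or 8.97 without CD8 Flica-negative replicate 2), Il21 (4.04 ± 0.39 (edgeR adjusted p = 4.8e-06)), Il6ra (3.34 ± 0.25 (edgeR adjusted p = 4.1e-07)) and Tnfsf8 (3.00 ± 0.20 (edgeR adjusted p = 1.4e-07)) led this list, followed by Tnfrsf4 (2.81 ± 0.24 (edgeR adjusted p = 1.6e-06)) and Il1r1 (2.52 ± 0.42 (edgeR adjusted p = 0.00066)). The CD4 libraries lay above the CD8 libraries without overlap for these 6 genes. Il4ra (1.48 ± 0.18 (edgeR adjusted p = 3.6e-05)), Il7r (1.37 ± 0.15 (edgeR adjusted p = 2.5e-05)), Il27ra (0.87 ± 0.17 (edgeR adjusted p = 0.0019)) and Il12rb2 (0.67 ± 0.16 (edgeR adjusted p = 0.0071)) were higher in CD4 cells under all alternatives run as well.

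The other 8 calls of this comparison were less stable, and the adjusted p without each library named follows it. Il10 (1.21 ± 0.30, edgeR adjusted p = 0.009, over all alternatives 0.000299 to 0.17) was lost only with all 5 groups in 1 fit (0.17), a setting that also took Il12rb1 (0.132), Il17rb (0.103), Il2ra (0.246), Tnfsf9 (0.143) and Il3ra (0.0757). Il12rb1 (0.45 ± 0.15, edgeR adjusted p = 0.045, over all alternatives 0.000468 to 0.132) was lost without CD4 replicate 1 (0.0971), 2 (0.106) or 3 (0.108) or CD8 replicate 1 (0.0979) or 3 (0.125). Il17rb (1.86 ± 0.64, edgeR adjusted p = 0.049, over all alternatives 0.0334 to 0.316) was lost without CD4 replicate 1 (0.0542) or 3 (0.316, log2 1.13) or CD8 replicate 1 (0.125), 2 (0.0618) or 3 (0.119). Il2ra (0.55 ± 0.17, edgeR adjusted p = 0.034, over all alternatives 4.21e-05 to 0.246) was lost without CD4 replicate 1 (0.0645) or 2 (0.165) or CD8 replicate 1 (0.0976) or 3 (0.0589). For Il3ra (-0.63 ± 0.21, edgeR adjusted p = 0.047, over all alternatives 0.0026 to 0.188) it was CD4 replicate 1 (0.116) or 2 (0.168), CD8 replicate 2 (0.188) or 3 (0.111) and TMM (0.0795). Among TNF members, Tnfsf9 (1.03 ± 0.32, edgeR adjusted p = 0.032, over all alternatives 0.000273 to 0.19) depended on CD4 replicate 2 (0.19) and 3 (0.0557) and CD8 replicate 1 (0.0922) and 3 (0.086). Tnfrsf10b (1.91 ± 0.55, edgeR adjusted p = 0.021, over all alternatives 0.0061 to 0.118) depended on CD4 replicate 1 (0.118) and CD8 replicate 1 (0.0589) and 2 (0.0717), and Tnfrsf26 (0.87 ± 0.24, edgeR adjusted p = 0.017, over all alternatives 0.00024 to 0.0661) on CD4 replicate 2 (0.0529) and 3 (0.0567) and CD8 replicate 3 (0.0661). In the other direction, Il13 (0.0139) and Tnfrsf1b (0.0463) passed without CD8 replicate 3, and Il36g (0.0447) without CD4 replicate 3.

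The difference between day 7 Flica-negative and control cells was tested against lineage itself, as the CD4 log2 fold change minus the CD8 one. Tnfsf8 rose in CD4 cells and fell in CD8 cells, Il2ra rose far more in CD8 cells, Il2rb rose more in CD4 cells, Il6ra fell more in CD8 cells, and Il7r fell in CD8 cells while its CD4 difference did not pass. Of 37 members, 11 differences were called positive (5.70% of 4530 genes) and 4 negative (4.66%), which is 29.7% and 10.8% of the members, the first above the background and the second on few genes. Under TMM 8 were positive and 2 negative (168 and 117 of all genes). The median difference was 0.93 in members, with the fitted values of genes at 0 in a group counted in, and -0.12 in all genes.

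The difference was 3.11 ± 0.27 (edgeR adjusted p = 1.2e-06) for Tnfsf8, -4.87 ± 0.47 (edgeR adjusted p = 2.4e-06) for Il2ra, 2.57 ± 0.26 (edgeR adjusted p = 3.9e-06) for Il6ra, 1.55 ± 0.22 (edgeR adjusted p = 0.00011) for Il7r and 1.45 ± 0.20 (edgeR adjusted p = 0.00011) for Il2rb. Tnfrsf8 was called as well (edgeR adjusted p = 0.00073), and since its CD8 control libraries are all at 0 the size of that difference is not fixed by the data. Il27ra (1.19 ± 0.22 (edgeR adjusted p = 0.0015)) and Tnfrsf26 (1.35 ± 0.31 (edgeR adjusted p = 0.0078)) fell more in CD8 cells under all alternatives run.

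Further calls were Il4ra (1.02 ± 0.23, edgeR adjusted p = 0.007, over all alternatives 0.00212 to 0.0564) and Tnfrsf9 (-1.63 ± 0.38, edgeR adjusted p = 0.0084, over all alternatives 0.00135 to 0.0739), both lost under TMM (0.0564 and 0.0739), and Il9r (3.89 ± 0.96 (edgeR adjusted p = 0.013), or 7.45 without CD8 Flica-negative replicate 2), the last lost with all 5 groups in 1 fit (0.0607, range over all alternatives 0.00043 to 0.0607). Il3ra (-1.24 ± 0.34, edgeR adjusted p = 0.025, over all alternatives 0.00169 to 0.112) was lost under TMM (0.112) and without CD8 control replicate 2 (0.0671), CD4 Flica-negative replicate 2 (0.066) or CD8 Flica-negative replicate 2 (0.0669). Tnfrsf10b (2.31 ± 0.65, edgeR adjusted p = 0.03, over all alternatives 0.00459 to 0.0876) was lost with all 5 groups in 1 fit (0.0583) and without CD4 control replicate 1 (0.0706), CD8 control replicate 2 (0.0876), CD4 Flica-negative replicate 1 (0.0846) or CD8 Flica-negative replicate 1 (0.0599) or 2 (0.0638). Tnfsf14 (1.38 ± 0.42 (edgeR adjusted p = 0.045)) and Il12rb1 (0.93 ± 0.28 (edgeR adjusted p = 0.046)) each passed by little, with the adjusted p over all alternatives in the ranges of 0.0134 to 0.0978 and 0.0193 to 0.198. Tnfsf14 was lost under TMM (0.0964), with all 5 groups in 1 fit (0.0637) and without CD4 control replicate 1 (0.0978) or 2 (0.0518), CD8 control replicate 2 (0.0913) or 3 (0.0679), CD4 Flica-negative replicate 1 (0.0925), 2 (0.0957) or 3 (0.0524) or CD8 Flica-negative replicate 2 (0.0848) or 3 (0.0949). Il12rb1 was lost under TMM (0.198), with all 5 groups in 1 fit (0.0552) and without CD4 control replicate 1 (0.0999) or 3 (0.0792), CD8 control replicate 1 (0.101) or 3 (0.0565), CD4 Flica-negative replicate 1 (0.0743), 2 (0.0813) or 3 (0.0841) or CD8 Flica-negative replicate 1 (0.081) or 3 (0.0885). Il10, Il21 and Tnfsf13b passed without 1 library each, CD8 control replicate 3 (0.0346), CD8 Flica-negative replicate 1 (0.0424) and CD8 control replicate 1 (0.0406), in ranges of 0.0346 to 0.255, 0.0424 to 0.198 and 0.0406 to 0.727 over all alternatives. For Il13, Il17a and Il1r1, at 0 in both controls, the fitted difference has no SE and its size is not fixed by the data.

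**Figure D3:**
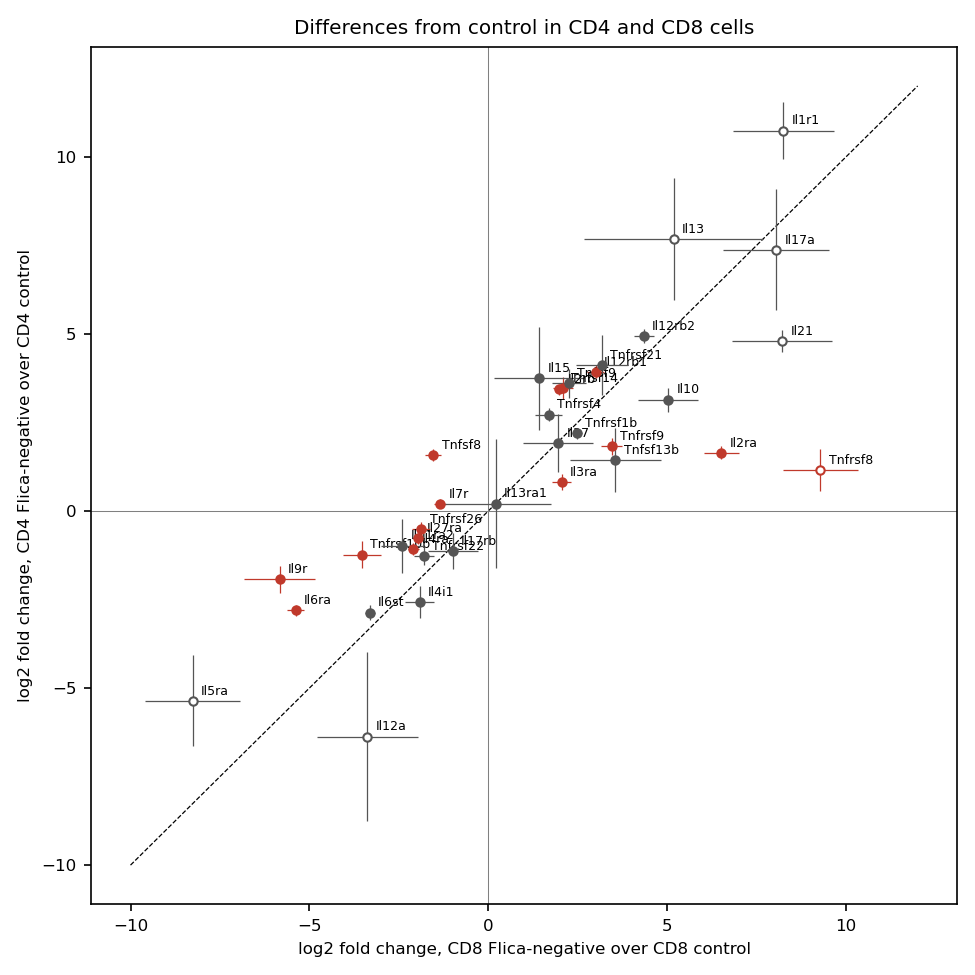
Log2 fold changes of day 7 Flica-negative over control cells in CD8 cells (x axis) and CD4 cells (y axis) for members tested in both, with bars of 1 SE, n = 3 libraries per group, the dashed line marking equal changes. Red points passed the edgeR test of the difference, open points have a group with at most 3 counts in total, so their fitted values are no bound, and Tnfsf8 lies above 0 in CD4 and below 0 in CD8 cells.

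Related genes that carry other symbols were read from the same fits. Of 14 such TNF superfamily genes 6 are listed, and of 23 cytokines and receptors of related structure 15 are listed. Fasl, the death ligand of cytotoxic cells, stood at 220.0, 206 and 174 in CD4 control, 8.81, 1.79 and 0 in CD8 control, 1585, 1237 and 998 in CD4 Flica-negative, 2065, 1780.3 and 1378 in CD8 Flica-negative and 1164, 1002 and 811 in CD8 Flica-positive libraries. It rose by 2.67 ± 0.23 (edgeR adjusted p = 2e-06) in CD4 and 8.86 ± 0.63 (edgeR adjusted p = 1.5e-06) in CD8 Flica-negative cells and was lower in Flica-positive CD8 cells than in Flica-negative ones, at -0.81 ± 0.23 (edgeR adjusted p = 0.027). In the TNF superfamily list, 4 were called higher and 2 lower in CD8 Flica-negative cells against control, 4 higher in CD8 Flica-positive cells (3 higher and 2 lower under TMM), and 3 higher and 2 lower in CD4 Flica-negative cells (2 higher under TMM). In Flica-positive CD8 cells against Flica-negative ones, Ltbr (3.996 ± 0.92 (edgeR adjusted p = 0.0086)) and Cd40 (5.03 ± 1.62 (edgeR adjusted p = 0.044)) were higher. Under TMM Cd40 did not pass (4.47). Cd40 stood at 30.5, 7.06 and 67.0 in CD8 Flica-positive and 0, 2.80 and 0 in CD8 Flica-negative libraries, so its fitted difference rests on few counts. Lta, the lymphotoxin alpha gene, fell with log2 fold changes of -1.66 ± 0.31 (edgeR adjusted p = 0.00082) in CD4 and -3.74 ± 0.46 (edgeR adjusted p = 5.7e-05) in CD8 Flica-negative cells. Cd40, a receptor of B cells and myeloid cells, fell likewise, with -4.09 ± 1.00 (edgeR adjusted p = 0.0044) and -5.87 ± 1.01 (edgeR adjusted p = 0.00058), beside the lower B cell markers. Its CD8 values were 65.2, 63.6 and 56.7 in control and 0, 2.80 and 0 in Flica-negative libraries. The fitted size of the CD8 difference thus rests on few counts and is no bound.

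The wider cytokine list had 6 higher and 2 lower in CD4 Flica-negative cells, 8 higher and 2 lower in CD8 Flica-negative cells and 11 higher and 2 lower in CD8 Flica-positive cells, each against control. Under TMM the higher calls were 7 and 10 in these CD8 groups, and Ifngr1 turned from 1.38 to -0.29 in Flica-positive cells. Ifng, the type 1 effector cytokine, rose by 5.96 ± 0.32 (edgeR adjusted p = 7.5e-08) in CD4 and 5.96 ± 0.22 (edgeR adjusted p = 2.8e-08) in CD8 Flica-negative cells, and Ifngr2, the signalling chain of its receptor, fell with log2 fold changes of -2.68 ± 0.27 (edgeR adjusted p = 7e-06) and -4.26 ± 0.44 (edgeR adjusted p = 1.8e-05). In Flica-positive CD8 cells against Flica-negative ones, 8 of 15 were higher and 1, Ifng, lower (-0.61 ± 0.19 (edgeR adjusted p = 0.04)), or 7 and 3 under TMM, and the higher ones included the myeloid growth factor receptors Csf3r (4.25 ± 0.37 (edgeR adjusted p = 1.2e-05)), Csf2rb (3.79 ± 0.38 (edgeR adjusted p = 3e-05)) and Csf2ra (3.39 ± 0.35 (edgeR adjusted p = 3.2e-05)). The neutrophil markers, of which Csf3r is 1, moved with them, and their part was not tested.

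The signalling lists are thinly covered, with 3 of 19 JAK, STAT and SOCS genes and 3 of 32 TRAF and NF-kappaB genes listed. Cish, a feedback inhibitor that interleukin-2 signalling induces, rose by 2.76 ± 0.17 (edgeR adjusted p = 1.3e-07) in CD4 and 3.00 ± 0.33 (edgeR adjusted p = 2.5e-05) in CD8 Flica-negative cells, and Socs5 fell with log2 fold changes of -0.62 ± 0.25 (edgeR adjusted p = 0.049) and -1.95 ± 0.29 (edgeR adjusted p = 0.00024). Tnfaip3, which encodes the NF-kappaB inhibitor A20, stood at 10228, 8159 and 7249.7 in CD4 control and 56423, 52526 and 41327 in CD4 Flica-negative libraries. It stood at 9164, 6646 and 5786 in CD8 control, 41702, 39851 and 30227 in CD8 Flica-negative and 18103, 20043 and 16392 in CD8 Flica-positive libraries. All 3 genes of the TRAF and NF-kappaB list, Tnfaip3, Nfkbiz and Tnip3, were called higher in each day 7 group against its control, but none of them under TMM in CD8 Flica-positive cells, where Tnfaip3 turned to -0.31. Tnfaip3 was lower in Flica-positive CD8 cells than in Flica-negative ones (-1.04 ± 0.19 (edgeR adjusted p = 0.002)). Between Flica-positive and Flica-negative cells the differences of Cish (-0.21 ± 0.20 (edgeR adjusted p = 0.48)), Socs2 (-0.60 ± 0.43 (edgeR adjusted p = 0.33)) and Socs5 (-0.16 ± 0.43 (edgeR adjusted p = 0.82)) did not pass. Under TMM Cish (-0.80) and Nfkbiz (-1.10) were called lower.

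Lists of lymphocyte subsets gave the rest of the setting. Of 7 NK cell genes 5 are listed, several of which cytotoxic T cells share. Their sums were 492, 539 and 914 in CD8 control, 23636, 27465 and 26586 in CD8 Flica-negative and 20482, 25488 and 17042 in CD8 Flica-positive libraries. Klrk1 had the highest mean of the list in CD8 control cells (512), and Gzma in CD8 Flica-negative (21542) and Flica-positive cells (17982). Klra8 was at 0 in all CD8 Flica-positive libraries, and 3 of the 5 were called higher and 2 lower in CD8 Flica-negative cells against control. Of 6 regulatory T cell genes 3 are listed. Ctla4, which activated T cells also express, was called higher against control in CD4 (3.81 ± 0.19 (edgeR adjusted p = 4.4e-08)) and CD8 Flica-negative cells (6.43 ± 0.28 (edgeR adjusted p = 9e-08)). Gpr83 was called lower in both (-0.77 ± 0.30 (edgeR adjusted p = 0.045) and -4.88 ± 0.57 (edgeR adjusted p = 4.3e-05)), and the integrin chain Itgae lower in CD8 cells (-5.13 ± 0.29 (edgeR adjusted p = 3.8e-07)). The sums of the list, 1353, 1349 and 1116 in CD4 control and 10880.1, 11258 and 11712 in CD4 Flica-negative libraries, are led by Ctla4, at 877, 851 and 607 and 10481, 10824 and 11445.

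Levels are compared between members only per length. In normalized counts per kilobase of exon, Il2rb was highest on day 7, at 6507 in CD4 Flica-negative and 7394 in CD8 Flica-negative cells. Il7r came next in CD4 Flica-negative cells, at 2422, and Tnfrsf1b in CD8 Flica-negative cells, at 2070.2. In control cells Il7r was highest, at 2111 in CD4 and 2401 in CD8 cells, followed by Il27ra, at 1606 and 2009.9. The ligands were lower, the highest of them per kilobase being Tnfsf8 in CD4 Flica-negative cells at 704.

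The members lie on several chromosomes (GENCODE M21 annotation on GRCm38, all 37 matched). Tnfrsf26 at chr7:143607659-143628722 and Tnfrsf22 at chr7:143634806-143649661 lie on the minus strand. Tnfrsf1b lies at chr4:145213463-145246870, Tnfrsf8 at chr4:145267137-145315164, Tnfsf9 at chr17:57105325-57107757 and Tnfsf14 at chr17:57189492-57194177. Il2ra lies at chr2:11642807-11693193, Il2rb at chr15:78479256-78495271, Il7r at chr15:9505788-9530176 and Il6ra at chr3:89864059-89913196. Tnfsf8 lies at chr4:63831308-63861347, Tnfrsf4 at chr4:156013843-156016612, Il13ra1 at chrX:36112110-36171259 and Il36g, named Il1f9 in that annotation, at chr2:24186476-24193568. Exons of Il4ra share 571 bases with Gm44876, those of Il21 469 with Gm12534, those of Il6ra 242 with Gm42809, those of Tnfsf9 192 with Gm11110 and those of Il17rb 141 with Actr8, each on the opposite strand. Counting there is uncertain where strand was not used.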

How the data were processed

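The deposited gene tables, 4 in all, hold counts per gene and library that the authors made from paired-end reads of oligo-dT libraries, with STAR 2.7.1a and the GRCm38 build named in the submitters' processing notes. The counting tool, its annotation and its use of strand are not given in the sources used here. Each deposited table also holds a mean signal per gene, the authors' mean of normalized counts, from which the size factors of the libraries were recovered (largest relative error of the means 5e-15). The tables list the genes that passed the authors' thresholds in a comparison (adjusted p under 0.05 and an absolute log2 fold change over 2), together 4567 genes, of which 4423 have a symbol. Their fold changes and p-values, and the enrichment tables, were not used.

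Each comparison was tested with edgeR 4.0.16 (quasi-likelihood, R 4.3.3, limma 3.58.1) on the counts of its groups, scaled by the recovered factors, over genes with at least 10 summed counts, with Benjamini-Hochberg adjustment over all listed genes tested and a threshold of 0.05. The difference between lineages is the interaction term of the 4 groups without Flica-positive cells. The fitting code was tested on simulated data, with a pass limit that was revised after the simulated output had been seen. Tables and plots used Python 3.11.15, pandas 2.3.3, numpy 2.4.6, scipy 1.17.1 and matplotlib 3.10.9. Alternatives were TMM over the listed genes, no count minimum, a mean of at least 10, DESeq2 1.42.0, a replicate block, all 5 groups in 1 fit, and each library left out.

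The members named were those of a fixed list of 38 family genes and, per comparison, the 6 largest rises and falls called at a mean normalized count of 20 or more (for the difference between lineages the 6 smallest p). Il13, Il12a, Il27 and Tnfrsf26 fall outside that rule and were added after their values were seen. Marker lists of 11 cell types and lists of related TNF superfamily genes, related cytokines, JAK, STAT and SOCS genes and TRAF and NF-kappaB genes were read from the same fits. The members and lists were chosen with earlier results of these data known. Counts varied within each group by more than counting noise, and 0 pairs of libraries were identical.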

Additional observations from a re-analysis of the deposited data

Results flagged for a closer look

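For 15 members the test of the difference itself found that Flica-negative and control cells differed by another amount in CD4 than in CD8 cells, given here as the CD4 log2 fold change minus the CD8 one. That is 15 of 37 members, where 5.70% and 4.66% of all 4530 genes were called positive and negative. Of the 15 calls, 7 were lost under some alternative (Tnfrsf9, Il3ra, Tnfsf14, Il12rb1, Il4ra, Il9r and Tnfrsf10b). Tnfsf8, with a difference of 3.11, rose in CD4 cells and fell in CD8 cells. Il2ra (-4.87), Tnfrsf9 (-1.63) and Il3ra (-1.24) rose more in CD8 cells. Tnfrsf8 (-8.11) was at 0 in CD8 control libraries, so its value depends on the fit's prior count and is no bound. Il2rb (1.45), Tnfsf14 (1.38) and Il12rb1 (0.93) rose more in CD4 cells. Il6ra (2.57), Il27ra (1.19), Il4ra (1.02), Tnfrsf26 (1.35), Il9r (3.89) and Tnfrsf10b (2.31) fell less in CD4 cells. Il7r (1.55) fell in CD8 cells, while its CD4 difference did not pass.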

How the results depend on the processing

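Over the members that the rule names and all others called in any setting, 2575 log2 fold changes were recomputed under an alternative. Of these, 2370 kept their direction and their side of the threshold, 139 no longer passed, 45 newly passed and 21 changed direction. A mean of at least 10 left 10 of 203 results without a value. TMM scaling gave 14 members called between CD8 Flica-positive and Flica-negative cells in place of 6, and turned Il2rb to -0.07 (Flica-positive against CD8 control), Il7r to -0.03 (CD4 Flica-negative against control) and, between Flica-positive and Flica-negative cells, Il4ra to -0.32, Tnfrsf9 to -0.23 and Tnfsf9 to -0.50. It removes the shift of the median that it measures, and what the shift comes from was not tested.

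Some settings added calls beside those given in the comparisons, listed here with the adjusted p and its range over all alternatives. DESeq2, which called too many false genes on simulated data, added Il2rb between CD8 Flica-positive and Flica-negative cells (0.0357, 0.00833 to 0.271), Il15 (0.0333, 0.0333 to 0.412) and Il27 (0.0231, 0.0164 to 0.377) between CD8 Flica-positive and control cells, Il12a (0.0418, 0.0169 to 0.146) between CD8 Flica-negative and control cells, Tnfrsf1b (0.0443, 0.000464 to 0.177) between CD4 and CD8 Flica-negative cells, Il10 (0.0194, 0.00597 to 0.186) and Tnfrsf26 (0.0423, 0.0179 to 0.352) between CD4 and CD8 control cells, and Il10 (0.0435, 0.0346 to 0.255) in the difference between lineages. TMM added Il11ra2 (0.0383, 0.0383 to 0.398) between CD8 Flica-positive and control cells and, like DESeq2, Il12a (0.0346). All 5 groups in 1 fit added Il15 (0.0475) and Il27 (0.0164) between CD8 Flica-positive and control cells and Il10 (0.00597) between control cells, and a mean of at least 10 Tnfrsf1b (0.0408).

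Among the same results, leaving out 1 library at a time changed the direction of 10 log2 fold changes, none of them called. Differences of members that passed in no setting are not counted here, and some of them turned too. Between CD8 Flica-positive and Flica-negative cells the ranges were -0.16 to 0.01 for Il12rb1, -0.70 to 0.27 for Il17a, -0.34 to 0.14 for Il6st and -0.30 to 0.31 for Tnfsf9. Between CD4 and CD8 control cells they were -0.12 to 0.29 for Il12rb2, -0.08 to 0.10 for Il6st and -0.65 to 0.06 for Tnfsf9. Between CD4 and CD8 Flica-negative cells they were -0.91 to 0.07 for Il17a, as also in the fitted difference between lineages, and -0.39 to 0.01 for Tnfsf13b. The cause was not tested.

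The total called over all genes tested moved by more than 1.5 times in 4 cases. Without CD8 Flica-negative replicate 2, 685 genes in place of 1049 were called between Flica-positive and Flica-negative cells, and without CD4 Flica-negative replicate 2, 609 in place of 964 between CD4 and CD8 Flica-negative cells. TMM gave 285 in place of 469 for the difference between lineages, and the replicate block 2107 in place of 3244 between CD8 Flica-positive and control cells. By direction, the 120 genes lower in Flica-positive than Flica-negative cells became 447 under TMM, 271 with all 5 groups, 194 with DESeq2 and 23 to 122 with a library left out. Against CD8 control, 529 in place of 1100 were lower in Flica-positive cells with the replicate block, and TMM moved the split as given there. Between CD4 and CD8 Flica-negative cells, 536 lower became 354 with all 5 groups and 325 to 551 with a library left out, and 428 higher became 284 to 388.

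The labels give every group the same replicate numbers but nothing that ties them. Deviations from the group means of libraries with the same number correlated by 0.162, 0.0362 and 0.0943 (replicates 1, 2 and 3) between Flica-positive and Flica-negative cells, by 0.124, 0.0172 and 0.166 between CD4 and CD8 Flica-negative cells, by 0.113, 0.0376 and 0.0469 between CD4 and CD8 control cells, and by -0.0885 to 0.0122 between day 7 and control cells. They were not taken as paired, although in these first 3 comparisons 5, 6 and 6 of 6 libraries correlated best with their own number, against 0, 1 and 0 of 6 between day 7 and control cells, and with a minimum mean of 100, chosen after seeing the data, all 3 correlations exceeded 0.1 between Flica-positive and Flica-negative cells (0.301, 0.135 and 0.22) and between control cells (0.334, 0.138 and 0.182). With the replicate block, 5, 27, 29 and 26 members were called in the comparisons of Flica-positive with Flica-negative, Flica-positive with control, CD8 Flica-negative with control and CD4 Flica-negative with control cells (6, 32, 31 and 29 without it), 24 and 13 between lineages on day 7 and in controls (18 and 10) and 13 in the difference between lineages (15). Over all genes the block gave, in the same order, 1150, 2107, 2414, 2197, 1272, 645 and 438 (1049, 3244, 3054, 2656, 964, 512 and 469). With it the adjusted p was above the threshold for Il17rb (0.148) between Flica-positive and Flica-negative cells, Il5ra (0.118), Il17rb (0.0662), Il10 (0.0662), Il17a (0.075) and Il1r1 (0.056) between Flica-positive and control cells, Tnfsf13b (0.0503) and Il36g (0.129) between CD8 and Il12a (0.164), Il15 (0.085) and Tnfrsf26 (0.06) between CD4 Flica-negative and control cells, and Il12rb1 (0.0553) and Tnfsf14 (0.0582) in the difference between lineages. It was below the threshold for Tnfsf14 (0.021), Il6st (0.0409), Tnfrsf21 (0.0482), Tnfrsf1b (0.000464), Tnfrsf9 (0.00974) and Il2rb (0.00419) between CD4 and CD8 Flica-negative cells, the last 4 lower in CD4 cells, and for Il27ra (0.0251), Il10 (0.0456) and Tnfrsf26 (0.0179) between control cells.

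Tables of selected genes give neither library depth nor a scaling over all genes, and with 3 libraries a group small differences in scarce members were not detectable. Il13, Il17a and Il1r1, at 0 in both controls, gave no SE for the difference between lineages.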
